A study of Mus musculus with 4 samples.

Results

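The 10 genes described here set how a cell enters or leaves the division cycle: the D-type cyclins Ccnd1, Ccnd2 and Ccnd3, their kinases Cdk4 and Cdk6, the Cip/Kip inhibitors Cdkn1a, Cdkn1b and Cdkn1c, and the Ink4 inhibitors Cdkn2c and Cdkn2d. They were listed by name, found on the array through the RefSeq accession of each probe, and are 10 of 20886 genes so named; 9 of them passed a filter on dim probes and are among the 12542 genes tested. RNA came from isolated heart muscle cells of male mice, 10 weeks old, bred from a line with Cre under the αMHC promoter, which is active in heart muscle, and a line with the tetO reprogramming factors Oct4, Sox2, Klf4 and Myc (OSKM). Animals were given doxycycline or PBS for 2 days, and 2 arrays were hybridised per treatment. The labels describe the same breeding for all 4 arrays, so the PBS animals carried the transgenes too, and none of the arrays shows doxycycline in the absence of the factors; drug and factors cannot be told apart. The labels do not tie arrays to separate animals, so p values rest on the spread between these samples alone, part or all of which may be technical.

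D cyclins carry growth signals to the cell cycle. They bind and switch on Cdk4 and Cdk6, which phosphorylate the retinoblastoma protein and so free E2F transcription factors to turn on genes of DNA synthesis. Ink4 proteins bind Cdk4 and Cdk6 directly and keep the cyclin out, whereas Cip/Kip proteins bind whole cyclin and kinase complexes, block those of Cdk2 above all, and can also help D cyclins assemble with Cdk4. Most heart muscle cells of the adult mouse have left the cycle, and they are known for low D cyclin activity and for high levels of Cdk inhibitors.

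Levels are log2 processed signals less the 75th percentile of their array, and a difference is the doxycycline mean minus the PBS mean, with the standard error of the limma fit (SE, n = 2 per group). The 75th percentile was 248 and 193 on doxycycline arrays 1 and 2, against 112 and 171 on PBS arrays 1 and 2, and 50.6% to 51.8% of spots were well above background. PBS array 1 stood apart from the other 3: repeated spots of a probe varied there by a median of 10.99%, against 4.0% to 4.8% on the others, and its markers of non-muscle cells were high (below). All 4 arrays lay on 1 slide scanned on 1 day, with PBS at positions 1 and 2 and doxycycline at 3 and 4, so position and treatment cannot be told apart. All 8 cardiomyocyte markers, among them Myh6 and Tnnt2, were well above background on every array. Their summed signal, in units of the array's 75th percentile, was 2118 and 2737 on the doxycycline arrays, against 3179 and 3462 on PBS arrays 1 and 2. Their median difference was 0.05 (-0.40 without PBS array 1). Without overlap, 2 of them (Actc1 and Myl2) lay below PBS (20.8% of all genes) and 1 (Ryr2) above (14.5%). Values without PBS array 1 are given beside many of the results below, though not beside all.

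The inhibitor gene Cdkn1a was far higher after doxycycline, while all 3 D cyclin genes and Cdk4 read lower on both doxycycline arrays than on both PBS arrays, save that the Ccnd3 difference turned positive under scaling to the array median. None of these differences passed the test over all genes. Of 12542 genes, 0 had an adjusted p under 0.05 (percent called 0%; limma, Benjamini-Hochberg), and 886 had an unadjusted p under 0.05 (7.06%). Among the 9 genes tested here 3 did so: Cdkn1a was higher (as were 3.17% of all genes) and Ccnd1 and Ccnd2 were lower (as were 3.89%). Doxycycline and PBS arrays were separated without overlap for 5 of the 9 (35.3% of all genes), with doxycycline above PBS for 1 (14.5% of all genes) and below PBS for 4 (20.8% of all genes). The median difference of the 9 genes was -0.34, against -0.06 over all genes tested. By group mean, 3 lay above PBS and 6 below, against 5666 and 6876 of the 12542 genes. Counts above and below PBS in the lists further on also go by group mean unless overlap is named. Under scaling to the array median 5 lay above and 4 below, with a median of 0.0082, against 0.29 over all genes.

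**Figure D1:**
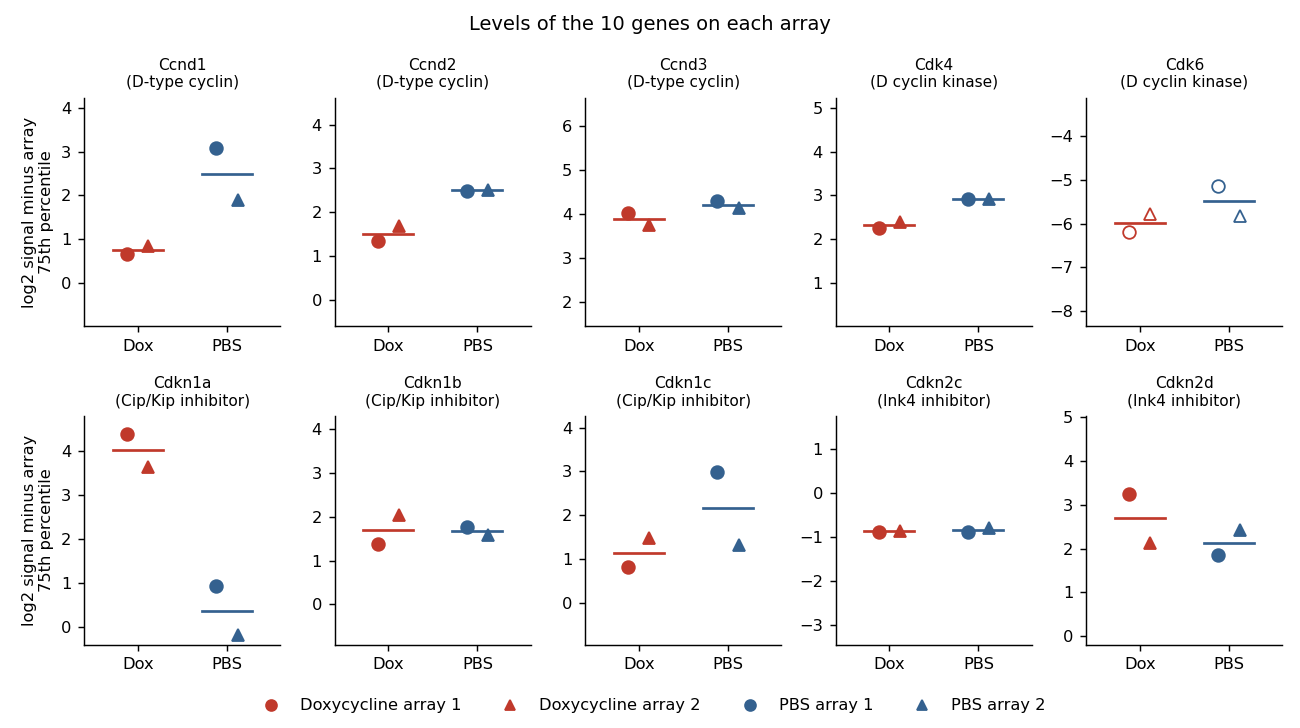
Log2 signal minus the array's 75th percentile for each of the 10 genes (brightest probe), with doxycycline arrays in red at left and PBS arrays in blue at right; lines are group means, open symbols are not well above background, and every panel spans the same number of log2 units. Cdkn1a read 4.39 and 3.64 on the doxycycline arrays and 0.93 and -0.20 on the PBS arrays, while Ccnd1, Ccnd2, Ccnd3 and Cdk4 read lower on both doxycycline arrays (Ccnd3 differs the other way under scaling to the array median).

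Among the D cyclins, Ccnd1 differed most. Its product, cyclin D1, is the D cyclin best known as a target of mitogen signalling. Ccnd1 read 0.68 and 0.85 on doxycycline arrays 1 and 2, against 3.08 and 1.88 on PBS arrays 1 and 2. Both doxycycline arrays lay below both PBS arrays, and the PBS arrays were 1.19 apart while the doxycycline arrays were 0.18 apart. The difference was -1.72 ± 0.51 (SE; 3.29-fold lower, 95% interval -2.93 to -0.50, limma adjusted p = 0.478). It ranked 226th from the lowest of the 12542 genes. Without PBS array 1 the difference was -1.12 (adjusted p = 0.456) and without PBS array 2 it was -2.31 (adjusted p = 0.095).

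Some markers of other cells also read lower after doxycycline, and which cells express Ccnd1 was not measured here. The fibroblast markers, 8 genes that include the collagen gene Col1a1 and the proteoglycan gene Lum, lay lower after doxycycline for 8 of 8, with 5 of them below PBS without overlap (20.8% of all genes), and had a median difference of -2.71 (-1.76 without PBS array 1). Their summed signal, in units of the array's 75th percentile, was 77.2 and 83.0 on the doxycycline arrays, against 216 and 66.5 on PBS arrays 1 and 2. The sum was high on PBS array 1 and not on PBS array 2. The proteoglycan gene Dcn, the brightest member, made up most of the sum on every array and overlapped between the groups. Col1a1, Col1a2, Col3a1, Lum and Postn read lower on both doxycycline arrays than on either PBS array; Lum read -1.27 and -0.16 on the doxycycline arrays, against 3.88 and 2.21 on PBS arrays 1 and 2. Endothelial markers had a median difference of -0.26 that turned to 0.30 without PBS array 1. Their groups overlapped for all but Emcn of the 8, and groups overlapped for 8113 of all 12542 genes. The endothelial sums were 174 and 237 on the doxycycline arrays, against 579 and 188 on PBS arrays 1 and 2. Smooth muscle and pericyte markers had sums of 30.5 and 22.0, against 70.8 and 60.5. Acta2, which made up most of the sum on PBS array 2, had log2 levels of 3.33 and 2.05, against 4.89 and 5.43. Of the 8 markers, 3 lay below PBS without overlap (20.8% of all genes), while Cnn1 and Myh11 differed by 1.17 and 0.34. The list median of -0.55 turned to 0.14 without PBS array 1. Macrophage markers had sums of 4.7 and 5.6, against 19.1 and 6.7, and a median difference of -1.18 (-0.49 without PBS array 1). Red cell markers had sums of 9.0 and 10.4, against 68.3 and 12.9. Each of these lists had members well above background on all arrays; Cd163 of the macrophage list and Slc4a1 of the red cell list were among the markers below background on all 4. In RNA from whole cell preparations, fewer cells of a type and less RNA per cell cannot be told apart, and the part of these cells in the Ccnd1 difference was not tested.

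Ccnd2, the D cyclin gene known to drive cycling of mouse heart muscle when overexpressed there, differed by nearly the same amount from either PBS array. It read 1.35 and 1.68 on doxycycline arrays 1 and 2, against 2.49 and 2.51 on the PBS arrays. The PBS arrays agreed within 0.03, and each doxycycline array lay 0.81 to 1.16 below each PBS array. The difference was -0.98 ± 0.40 (SE; 1.98-fold lower, 95% interval -1.94 to -0.03, adjusted p = 0.684). It was -1.0 without PBS array 1, -0.97 without PBS array 2 and -0.64 under scaling to the array median. Of the markers of other cells given above, 3 of the 8 smooth muscle and pericyte genes and 5 of the 8 fibroblast genes also lay below PBS without overlap (20.8% of all genes). So did 4 of the 6 macrophage genes tested, 2 of the 2 red cell genes tested and 1 of the 8 endothelial genes. The other tested members of these lists overlapped between the groups. The fibroblast sum, most of which was Dcn, was lower on PBS array 2 (66.5) than on either doxycycline array (77.2 and 83.0). Col1a1, Col1a2, Col3a1, Lum and Postn read higher on PBS array 2 than on both doxycycline arrays. The part of these cells in the Ccnd2 difference was not tested.

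Ccnd3, the D cyclin best known from lymphocytes and skeletal muscle, differed little. Its brighter probe read 4.01 and 3.74 on the doxycycline arrays, against 4.30 and 4.12 on the PBS arrays, a difference of -0.34 ± 0.40 (SE; 95% interval -1.29 to 0.61, adjusted p = 0.948). A second probe, which carries the accession of another transcript, read 2.50 and 2.40 on the doxycycline arrays, against 2.68 and 2.51 on the PBS arrays, a difference of -0.15 ± 0.39. Both probes had doxycycline below PBS on all arrays, by 0.01 to 0.56 for any pair of arrays, and under scaling to the array median both differences turned positive (0.0082 and 0.20). That scaling moved the median of all genes by 0.35, and relative to it the probes stood at -0.28 and -0.08.

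Of the kinases, Cdk4 was read by 3 probes with the same accession, and the 3 agreed. The brightest read 2.26 and 2.40 on the doxycycline arrays, against 2.91 and 2.93 on the PBS arrays, a difference of -0.59 ± 0.39 (SE; 1.504-fold lower, 95% interval -1.52 to 0.35, adjusted p = 0.881). The other probes differed by -0.73 and -0.50. For all 3 both doxycycline arrays lay below both PBS arrays, and the arrays of a group lay within 0.14 of each other. Leaving out any array gave differences of -0.66 to -0.52 for the brightest probe, and scaling to the array median gave -0.24. The steadiness of the 3 probes is that of a single gene on the same 4 RNA samples, since they share their target. Cdk6, the partner kinase that is abundant in blood-forming cells, stayed below the background limit on all arrays, with processed signals of 3.4 and 3.5 on the doxycycline arrays and 3.2 and 3.0 on the PBS arrays, and it was not tested.

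The Cdk4 promoter is shown because it holds most of the E-boxes, the sites that MYC and its partner MAX bind, found among these genes. RefSeq promoter windows of the GRCm38.p6 build, from 250 bases before to 50 after a start, were at hand for 7 of the 10 genes, in 10 windows; Ccnd1, Ccnd2 and Cdkn1c had none. Capitals mark the E-box CACGTG and the GC box GGGCGG, searched on both strands. The Cdk4 window, chr10:127063285-127063584 on the + strand, reads as follows.
Cdk4: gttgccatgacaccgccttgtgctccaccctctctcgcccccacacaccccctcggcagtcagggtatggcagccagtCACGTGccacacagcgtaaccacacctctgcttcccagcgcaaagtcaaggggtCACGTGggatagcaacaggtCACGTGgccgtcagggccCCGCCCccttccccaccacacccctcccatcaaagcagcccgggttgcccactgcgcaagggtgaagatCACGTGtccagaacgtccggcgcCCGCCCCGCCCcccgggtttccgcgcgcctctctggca
It holds 4 E-boxes, with first bases at -172, -118, -98 and -11 from the start, and 3 GC boxes, of which 2 overlap. An E-box stood in 7.15% and a GC box in 35.7% of all 32851 windows of this length. Among the other windows, one of Cdkn2c and that of Cdk6 had 1 E-box each and those of Cdkn1a, Cdkn1b, Cdkn2d and Ccnd3 had no such letters. Myc, an introduced factor, read 1.77 and -0.49 on the doxycycline arrays, against -2.34 and -3.21 on the PBS arrays (difference 3.41 ± 0.77, limma adjusted p = 0.331), whereas Cdk4 read lower on both. Klf4, another introduced factor, read 3.19 and 3.17 on the doxycycline arrays, against 3.98 and 2.95 on the PBS arrays (difference -0.28), and its groups overlapped. Whether these probes read the introduced transcripts or the animals' own was not established. A match is a run of letters and not a measured binding site.

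Cdkn1a encodes p21, the inhibitor known as a direct target of the p53 protein and of stress signals. It read 4.39 and 3.64 on doxycycline arrays 1 and 2, against 0.93 and -0.20 on PBS arrays 1 and 2. The groups were far apart: any doxycycline array exceeded any PBS array by 2.71 to 4.59, while the arrays of a group differed by 0.75 (doxycycline) and 1.14 (PBS). The difference was 3.65 ± 0.54 (SE; 95% interval 2.37 to 4.94, or 5.16-fold to 30.6-fold), the 19th highest of the 12542 genes and the 22nd smallest p. It did not pass over all genes (adjusted p = 0.165). It passed when doxycycline array 1 (3.28, adjusted p = 0.048) or doxycycline array 2 (4.03, adjusted p = 0.00077) was left out and under scaling to the array median (3.999, adjusted p = 0.0017). Cdkn1a did not pass without PBS array 1 (4.22) or PBS array 2 (3.08). The difference was thus larger without the array that stood apart.

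The Cdkn1a probe was spotted 10 times on each array, which gives a measure of spot error. Its processed signal ran from 4926 to 5411 over the 10 spots on doxycycline array 1 and from 2310 to 2452 on doxycycline array 2, against 183 to 266 on PBS array 1 and 140 to 162 on PBS array 2. The lowest doxycycline spot was therefore several times the highest PBS spot, but these signals are not scaled across arrays. In units of the array's 75th percentile the probe read 21.0 and 12.5 on the doxycycline arrays, against 1.91 and 0.87 on PBS arrays 1 and 2. The spots varied by 2.77% and 1.85% on the doxycycline arrays and by 11.7% and 4.82% on the PBS arrays (coefficient of variation over 10 spots), much less than the arrays differed. Spots of 1 array are not replicates of the treatment.

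**Figure D2:**
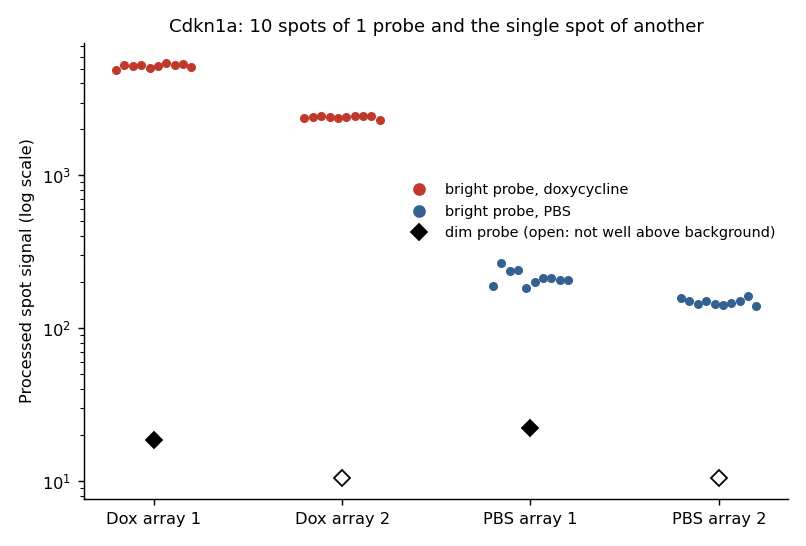
Processed signal (log scale, not scaled across arrays) of the 10 spots of the bright Cdkn1a probe on each array (circles, doxycycline red, PBS blue) and of the single spot of a dim Cdkn1a probe with another transcript's accession (diamonds, open where not well above background). Bright-probe spots ran from 2310 to 5411 on doxycycline arrays and from 140 to 266 on PBS arrays, while the dim probe gave 18.4 and 10.5 on doxycycline arrays and 22.1 and 10.4 on PBS arrays.

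A second Cdkn1a probe did not show this difference. It carries the accession of the gene's other RefSeq transcript and gave processed signals of 18.4 and 10.5 on the doxycycline arrays, against 22.1 and 10.4 on the PBS arrays. It was well above background on doxycycline array 1 and PBS array 1 alone, and the groups overlapped. Its difference was -0.78 ± 0.62 (SE, adjusted p = 0.884 with every probe as a feature of its own), and 0.06 without PBS array 1. Averaging the 2 probes of the gene gave 1.43 (adjusted p = 0.681), so the value of 3.65 is that of the bright probe.

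The annotation gives Cdkn1a starts 2790 bases apart, and both promoter windows are shown because the 2 probes that disagree carry the accessions of the gene's 2 transcripts; which start belongs to which transcript was not established here. Capitals in the first mark a match to the p53 consensus site, 20 bases long, with at most 1 mismatch, and in the second the GC box GGGCGG. The p53 site was searched for after the window had been read. Both windows are on the + strand of GRCm38.p6, at chr17:29090729-29091028 and chr17:29093519-29093818.
Cdkn1a upstream start: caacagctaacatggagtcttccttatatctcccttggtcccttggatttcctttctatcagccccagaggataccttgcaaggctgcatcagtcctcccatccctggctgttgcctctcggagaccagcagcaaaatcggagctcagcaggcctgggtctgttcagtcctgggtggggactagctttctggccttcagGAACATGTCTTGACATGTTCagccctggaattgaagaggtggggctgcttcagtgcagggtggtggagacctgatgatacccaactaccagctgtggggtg
Cdkn1a downstream start: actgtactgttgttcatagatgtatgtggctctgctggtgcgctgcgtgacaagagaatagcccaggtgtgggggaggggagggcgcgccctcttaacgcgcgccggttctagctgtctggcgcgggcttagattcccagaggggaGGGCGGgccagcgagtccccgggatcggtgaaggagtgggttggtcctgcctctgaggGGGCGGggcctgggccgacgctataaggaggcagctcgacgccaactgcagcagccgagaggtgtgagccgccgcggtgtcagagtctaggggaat
The p53 match starts 51 bases before the upstream start, and such a match stood in 29 of 32851 windows (0.0883%) and in no other window of these genes. The window of the downstream start holds 2 GC boxes. Neither holds the exact TATA box letters TATAAA, which stood in 13.6% of windows, and variants of these letters were not searched for. Trp53, which encodes p53, read -2.53 and -3.56 on the doxycycline arrays, against -2.38 and -2.48 on the PBS arrays (difference -0.61). Ccng1, a p53 target, read 4.05 and 3.87 on the doxycycline arrays, which lay between the PBS arrays at 3.40 and 4.86 (difference -0.17). These 2 genes were picked after their values were seen. The p53 protein was not measured, and its part in the Cdkn1a difference was not tested.

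The other Cip/Kip genes did not share the Cdkn1a pattern. Cdkn1b encodes p27, which holds resting cells out of the cycle and is controlled in large part by protein breakdown. It read 1.37 and 2.03 on the doxycycline arrays, against 1.76 and 1.59 on the PBS arrays. The PBS arrays lay between the doxycycline arrays, and the difference was 0.02 ± 0.43 (SE; 95% interval -1.01 to 1.05, adjusted p = 0.997), which leaves room for a change of about the size of the Ccnd2 difference in either direction. Cdkn1c encodes p57, an inhibitor expressed from the maternal copy. It read 0.82 and 1.48 on the doxycycline arrays, against 2.98 and 1.33 on PBS arrays 1 and 2. PBS array 1 alone was high, and PBS array 2 lay between the doxycycline arrays. The difference was -1.005 ± 0.62 (SE; 95% interval -2.49 to 0.48, adjusted p = 0.873), and it was -0.18 without PBS array 1 and -1.83 without PBS array 2. The array that decided it was the one with the high fibroblast, endothelial and macrophage marker sums given above, and their part in it was not tested.

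Of the Ink4 genes, Cdkn2c, which encodes p18, was the most even of the 9 over the 4 arrays. It read -0.87 and -0.85 on the doxycycline arrays, against -0.88 and -0.80 on the PBS arrays, a difference of -0.03 ± 0.39 (SE; 95% interval -0.96 to 0.90, adjusted p = 0.997). The 4 arrays lay within a narrow band, and the width of the interval comes from the spread that the fit borrows from all genes. Cdkn2d, which encodes p19 of the Ink4 family, read 3.25 and 2.13 on doxycycline arrays 1 and 2, against 1.85 and 2.42 on PBS arrays 1 and 2. Doxycycline array 1 alone was high, and doxycycline array 2 lay between the PBS arrays. The difference was 0.56 ± 0.52 (SE; 95% interval -0.68 to 1.79, adjusted p = 0.922), and without doxycycline array 1 it was -0.0020.

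**Figure D3:**
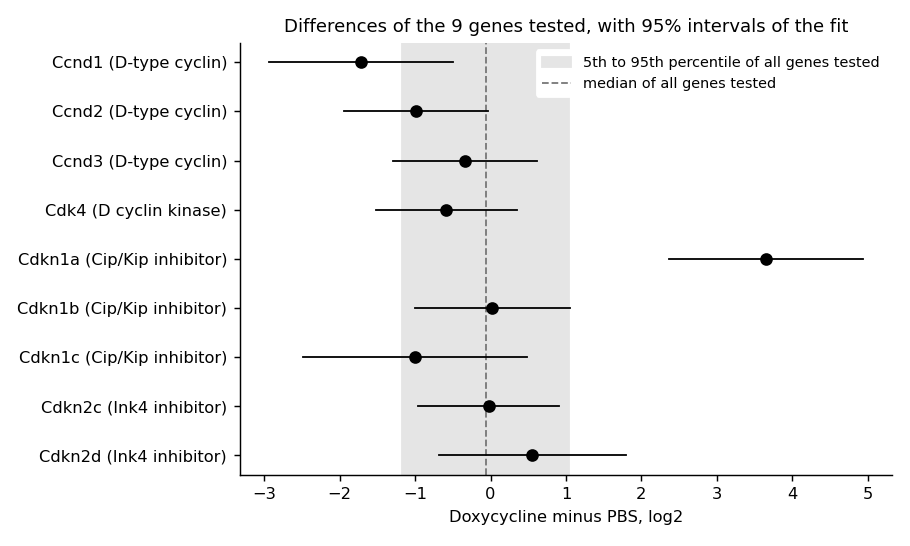
Doxycycline minus PBS (log2) for the 9 genes tested, with 95% intervals of the fit; the grey band runs from the 5th to the 95th percentile of all genes tested (-1.17 to 1.04) and the dashed line is their median (-0.06). Cdkn1a at 3.65 and Ccnd1 at -1.72 lie outside the band and the other 7 inside it.

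**Figure D4:**
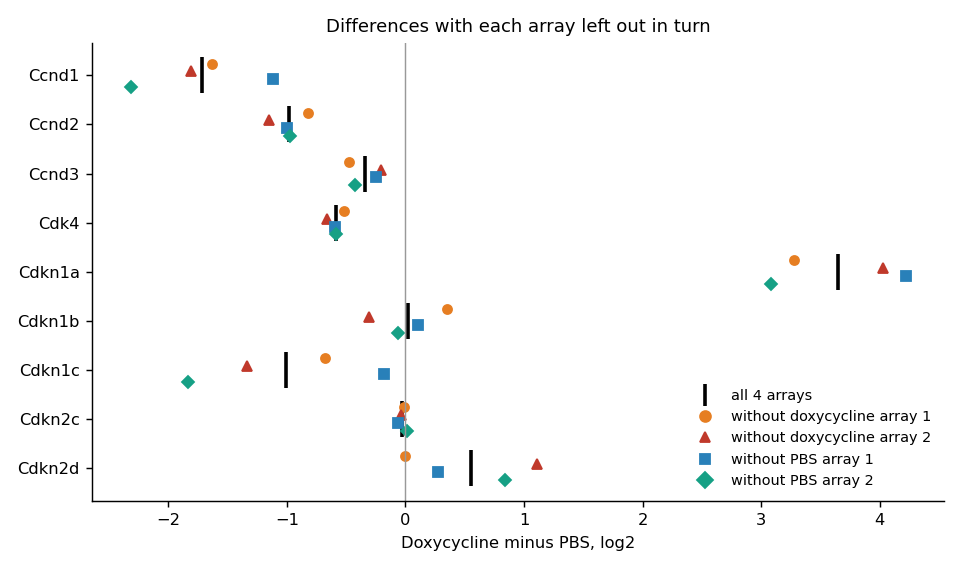
Doxycycline minus PBS (log2) for the 9 genes tested, with all 4 arrays (black bars) and with each array left out in turn (symbols). Ccnd2 and Cdk4 stay between -1.15 and -0.82 and between -0.66 and -0.52, whereas Cdkn1c ranges from -1.83 to -0.18 and Cdkn2d from -0.0020 to 1.11.

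The genes whose values over the 4 arrays ran most like those of Cdkn1a were found by Euclidean distance after each gene was centred on its own mean, among 12075 named genes. They were Map3k6 (distance 0.49), a stress-activated kinase gene, and S100a9 (0.71) and S100a8 (0.72), which encode calcium-binding proteins abundant in neutrophils. Map3k6 read 4.16 and 3.13 on the doxycycline arrays, against 0.02 and -0.66 on the PBS arrays (difference 3.96 ± 0.52). S100a9 differed by 3.26 ± 0.66 and S100a8 by 3.67 ± 0.73. Like Cdkn1a, these 3 read higher on array 1 than on array 2 of each group. Eppin, which encodes a protease inhibitor of the epididymis, came as near by its recorded values, but it was below the background limit on both PBS arrays, so its distance is not a measured one; its level after doxycycline was at least 2.58-fold higher. Nearest to Ccnd1 were Akr1c19 (0.071), an aldo-keto reductase gene, Smtnl2 (0.081), a smoothelin-like gene, Heyl (0.13), a Notch target, and Gask1b (0.14), with differences of -1.70, -1.70, -1.66 and -1.67. All 4 read highest on PBS array 1. With 4 arrays such likeness is a description.

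Further along the pathway, no gene of the lists passed the test over all genes. The Rb family, E2F and DP factors had 11 of 13 members tested, 5 above PBS and 6 below, with a median difference of -0.05. Tfdp2, a partner of E2F factors, read 1.73 and 1.40 on the doxycycline arrays, against -0.76 and 0.58 on the PBS arrays (difference 1.66 ± 0.54, adjusted p = 0.545; 0.99 without PBS array 1). E2f8, a repressing member of the family, and E2f2, an activating member, missed the background limit on both doxycycline arrays and were at least 2.27-fold and at least 1.95-fold lower after doxycycline (adjusted p = 0.448 and 0.562). The retinoblastoma gene Rb1 differed by -0.09 and its relative Rbl2 by 0.59 ± 0.48 (0.28 without PBS array 1). Of the cyclin E and cyclin A list, 4 of 10 genes were tested: Ccne1 (-1.03 ± 0.57), Cdk2 (-0.62 ± 0.45), Cks1b (-0.54 ± 0.50) and Cdc25a (-0.29 ± 0.40). All 4 had a negative difference, as did 6876 of the 12542 genes, also without PBS array 1 (-1.46, -0.22, -1.04 and -0.22 in that order). Cdk2 and Cdc25a lay below PBS without overlap (20.8% of all genes), while Ccne1 and Cks1b overlapped. Ccne1 was well above background on only 1 of the doxycycline arrays. Ccna1, Ccna2, Ccne2, Cdk1 and Cdk3 were below background on all arrays. The replication and mitosis genes had 12 of 20 tested, 3 above PBS and 9 below, with a median of -0.33 (-0.07 without PBS array 1). Their groups overlapped for all 12, as they did for 8113 of the 12542 genes. Mcm5 differed by -0.64 ± 0.51 (-0.05 without PBS array 1) and Aurka by -0.63 ± 0.53 (-1.05 without it). Aurka was well above background on only 1 array of each group. Top2a, Ccnb1, Ccnb2, Aurkb, Bub1, Cdc6 and Tyms were below background on all 4 arrays.

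**Figure D5:**
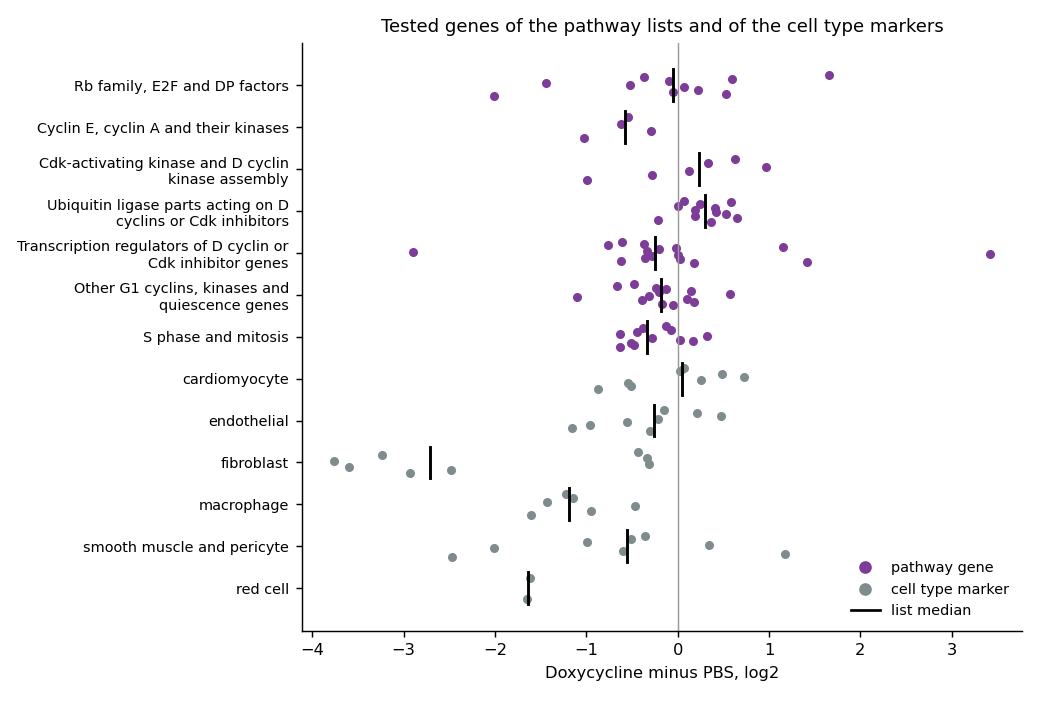
Doxycycline minus PBS (log2) for every tested gene of 7 pathway lists (purple) and of 6 cell type marker lists (grey), with black bars at the list medians. The E2F list centres on -0.05 and the replication and mitosis list on -0.33, while the fibroblast list lies at -2.71 (-0.13, -0.07 and -1.76 without PBS array 1).

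Genes that help assemble or switch on the D cyclin kinases were mixed. Hsp90aa1, a chaperone gene whose product folds Cdk4 with Cdc37, read 4.01 and 3.68 on the doxycycline arrays, against 2.86 and 2.90 on the PBS arrays (difference 0.97 ± 0.40, adjusted p = 0.693). Ccnh, the cyclin of the Cdk-activating kinase, differed by -0.99 ± 0.43, Mnat1, its assembly factor, by 0.63 ± 0.54 (-0.06 without PBS array 1) and Hsp90ab1 by 0.33 ± 0.42 (0.03 without it). Over the 6 genes the median was 0.23, and -0.13 without PBS array 1. The ubiquitin ligase list, whose products tag D cyclins or Cdk inhibitors for breakdown, had 11 of 12 tested members above PBS by a median of 0.30, of which 5 lay above without overlap (14.5% of all genes). Its members with the smallest p were Cul1 (0.65 ± 0.42), Ddb1 (0.52 ± 0.41), Skp1 (0.58 ± 0.46) and Fbxw8 (0.41 ± 0.41). Without PBS array 1 they differed by 0.36, 0.31, 0.14 and 0.22 in the same order, and the median was 0.17.

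Among regulators of D cyclin and Cdk inhibitor genes, 16 were tested, 5 above PBS and 11 below, with a median of -0.25 (0.24 without PBS array 1). Mycn, a relative of Myc, lay opposite to it and read -3.28 and -3.99 on the doxycycline arrays, against 0.11 and -1.60 on the PBS arrays (difference -2.89 ± 0.64, adjusted p = 0.331). Of the doxycycline arrays, array 1 alone had this spot well above background. Cebpb, a factor of the acute phase response, differed by 1.42 ± 0.54 (0.76 without PBS array 1) and Stat3, which acts downstream of cytokine receptors, by 1.16 ± 0.47. Mycn, Myc, Cebpb and Stat3 are among the 8 of 16 whose groups were apart, 3 above PBS and 5 below (35.3% of all genes in either direction). In the remaining list of other cyclins, kinases and quiescence genes, 4 of 14 lay above PBS and 10 below, with a median of -0.19, and the members with the smallest p were Cdk5 (-1.10 ± 0.50), Lin9 (-0.67 ± 0.49), Dyrk1a (0.57 ± 0.45) and Mybl2 (-0.48 ± 0.41). Without PBS array 1 these were -0.88, -0.94, 0.17 and -0.23 in that order. Lin9 was well above background on only 1 of the doxycycline arrays.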

How the data were processed

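Spot intensity came from 1-colour Cy3 scans that the authors ran through Agilent Feature Extraction 10.7.1.1, per the file headers. The deposited processed intensity has background and spatial trend removed within an array and no scaling across arrays. Other columns that the authors deposited, the flags for each spot, were used too. The design build is mm9. Of 39429 probes, 27508 were named through a RefSeq table (GRCm38.p6).

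Log2 processed intensity was centred on each array's 75th percentile over the non-control spots, flagged outlier spots were left out (35 probes lost all their spots on an array) and repeated spots were averaged. The filter on dim probes asked for signal well above background on 2 or more arrays (for repeated spots, in a share of 0.5 or more), and the brightest kept probe stood for a gene. Groups followed the sample titles. limma 3.58.1 in R 4.3.3 tested doxycycline against PBS two-sided (4.69 prior and 2 residual degrees of freedom), with Benjamini-Hochberg adjustment over 12542 genes, or 16042 probes, at a threshold of 0.05. A permutation test with 2 against 2 arrays cannot go below p = 0.333. The steps were tested on simulated arrays. Bounds set the dim group at the higher of its own level and the lowest level well above background. Named were all members, up to 4 genes per pathway list with the smallest p, and the 4 nearest genes by distance. Alternatives were normexp (offset 50, on the median spot signal), quantile normalization, median scaling, no dim-probe filter, detection on all 4 arrays, averaged probes, every probe, a replicate block and leaving out each array. Members and lists were chosen with earlier results of these data known. Skp2, Cd68 and Hbb-b1 matched no probe. The number of arrays limits precision.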

Additional observations from a re-analysis of the deposited data

How the results depend on the processing

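Of 12542 genes, 0 passed in the main analysis (limma; 886 at an unadjusted p under 0.05), and 0 passed under normexp, quantile normalization, no filter, the filter on all 4 arrays, the mean of probes, every probe, and without either PBS array. Scaling to the array median gave 128 (95 higher, 33 lower). Leaving out an array gave 0 to 171, with 32 without doxycycline array 1 and 171 without doxycycline array 2, where the prior degrees of freedom were 1013, so that nearly the same spread was taken for every gene. The replicate number as a block gave 295 genes, 152 higher and 143 lower, and called Cdkn1a (adjusted p = 9.7e-07). The titles do not say that a number marks a shared animal or day. The deviations of same-numbered arrays correlated at -0.085 across genes. With 2 arrays per group this value cannot settle whether same-numbered arrays were paired. The prior degrees of freedom of the block fit were infinite, so that a single spread was taken for every gene. No other member was called under any alternative. Signs turned for Ccnd3, Cdkn1b, Cdkn2c, Cdkn2d and the second probes of Ccnd3 and Cdkn1a. Ccnd3 was 0.0082 and its second probe 0.20 under median scaling, Cdkn2c was 0.036 under quantile normalization and 0.32 under median scaling, and Cdkn1b was -0.011 under quantile normalization. With each array left out in turn, Cdkn1b ran from -0.31 to 0.35, Cdkn2c from -0.066 to 0.013, Cdkn2d from -0.0020 to 1.11 and the dim Cdkn1a probe from -1.63 to 0.063. Ccnd1, Ccnd2, Cdk4, Cdkn1c and the bright Cdkn1a probe kept their sign under every alternative run; under median scaling Ccnd2 was -0.64 and Cdk4 was -0.24, against a median of all genes of 0.29.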
